A study of Homo sapiens with 24 samples.

Results

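Here the effect of FDI-6, a small molecule named as a forkhead domain inhibitor and described as blocking the binding of FOXM1 to DNA, was set against the effect of removing FOXM1 mRNA by siRNA, gene by gene, in A549 lung adenocarcinoma cells. The comparison was the difference of 2 effects: FDI-6 over its own control, minus siFOXM1 over siControl. Its members were the 14 libraries of those 4 groups, out of 24 in the series: 4 siFOXM1, 4 siControl, 3 FDI-6 and 3 control libraries of the FDI-6 experiment. A549 is an established human lung adenocarcinoma line, so each group is a model in 1 cell line. The siFOXM1 cells received 25 nM siRNA against FOXM1 with a lipid transfection reagent, and the siControl cells received a scrambled siRNA in the same way. The FDI-6 cells were treated with 20 µM FDI-6 for 24 h, with no transfection stated. The study names DMSO as the comparator of FDI-6, and the time between transfection and harvest is not given in the sources used here. The 2 experiments share no library, were sequenced to different depths and used different controls, so the agent and the experiment cannot be told apart in any difference below.

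FOXM1 is a forkhead transcription factor that drives the genes of G2 and mitosis, many of which it reaches through the MuvB complex at a promoter element called the cell-cycle genes homology region (CHR), together with MYBL2 (B-MYB). Inhibition of its DNA binding and loss of its mRNA both bear on this set of genes. In lung adenocarcinoma FOXM1 is best known as a gene of proliferating cells.

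Libraries held 23964711 to 30140550 read pairs counted on genes in the siRNA experiment and 16487394 to 21039750 in the FDI-6 experiment. Mitochondrial transcripts made up 4.52% to 5.53% of counts in the siRNA libraries and 7.43% to 8.64% in the FDI-6 experiment. The first principal component, 43.4% of the variance, separated the experiments, and the siFOXM1 and siControl libraries numbered 4 stood apart from the other siRNA libraries on the second. All 8 markers of a lung epithelial line (keratins, EPCAM, CDH1 and others) were expressed in every group, with summed levels of 14150 to 18560 CPM (read counts scaled to a common library size) in the siRNA libraries, 17830 to 18360 in the control libraries and 12610 to 12980 with FDI-6. The immune markers CD3E and MS4A1 had 0 counts in all 14 libraries. Nothing in the labels says that replicates came from separate cultures, so the p-values measure only the spread between these libraries. In bulk RNA, fewer cells of a kind and less RNA per cell cannot be told apart.

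The targeted gene came first. FOXM1 (chromosome 12, 2857680 to 2877174, minus strand, hg38) stood at 128, 129.5, 138 and 108 normalised CPM in the siControl libraries and at 12.8, 13.2, 12.3 and 10.2 CPM in the siFOXM1 libraries. In the FDI-6 experiment it stood at 132, 126 and 129 CPM in the controls and at 91.0, 112 and 97.8 CPM with FDI-6. The siRNA left 9.63% of the control level, and FDI-6 left 77.6%, with no overlap between treated and control libraries in either experiment. The FDI-6 effect on FOXM1 was -0.37 ± 0.10 (log2 fold change ± SE, adjusted p = 0.016) and the siFOXM1 effect -3.38 ± 0.10 (adjusted p = 3.7e-11), a difference of 3.01 (95% interval 2.71 to 3.32, adjusted p = 3.1e-08, edgeR's quasi-likelihood test). MYBL2, the B-MYB factor that acts with FOXM1, read 196, 199 and 188 CPM in the FDI-6 controls and 118, 155 and 136 CPM with FDI-6, a log2 change of -0.51 ± 0.12 (adjusted p = 0.0063). In siFOXM1 the MYBL2 values, 128 to 173 CPM, overlapped those of siControl, 133 to 178 CPM (-0.05 ± 0.11, adjusted p = 0.92). The difference for MYBL2, -0.46 with an interval of -0.80 to -0.12, did not pass the test (adjusted p = 0.055).

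Over the transcriptome the compound and the knockdown moved different numbers of genes by different amounts. Calls required both an adjusted p below 0.05 and more than 1.5-fold. Of 17026 genes tested, FDI-6 changed 1877 (11.0%), 1126 higher (6.61%) and 751 lower (4.41%), and siFOXM1 changed 138 (0.811%), 22 higher (0.129%) and 116 lower (0.681%). The difference of the effects was called for 1959 genes (11.5%), 1247 with FDI-6 above siFOXM1 (7.32%) and 712 below (4.18%). In 1719 of the 1959 (10.1% of genes tested), the FDI-6 effect was the larger of the pair in size. Among the same 1959 genes, FDI-6 alone was called in 1231 (7.23% of genes tested), siFOXM1 alone in 77 (0.452%), both in 30 (0.176%) and neither in 621 (3.65%). Without FDI6 replicate 1 the differences called lower fell from 712 to 441, and the FDI-6 calls from 1877 to 1266. The 22 genes higher in siFOXM1 numbered 10 without siFOXM1 replicate 3 and 50 without siControl replicate 4. With upper-quartile scaling in place of TMM, 51.4% of the calls lay above 0, against 63.7%, so the balance of directions depends on the scaling. With the siRNA libraries paired by replicate number, siFOXM1 changed 275 genes, 90 higher and 185 lower.

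Over the 11198 genes that averaged 100 counts or more, the median size of the FDI-6 effect was 0.258 on the log2 scale and that of the siFOXM1 effect 0.093. Pearson's r between the effects, given as a description across genes, which are not independent replicates, was -0.182 and Spearman's rho -0.139, and 46% of the genes had the same sign in both.

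**Figure D1:**
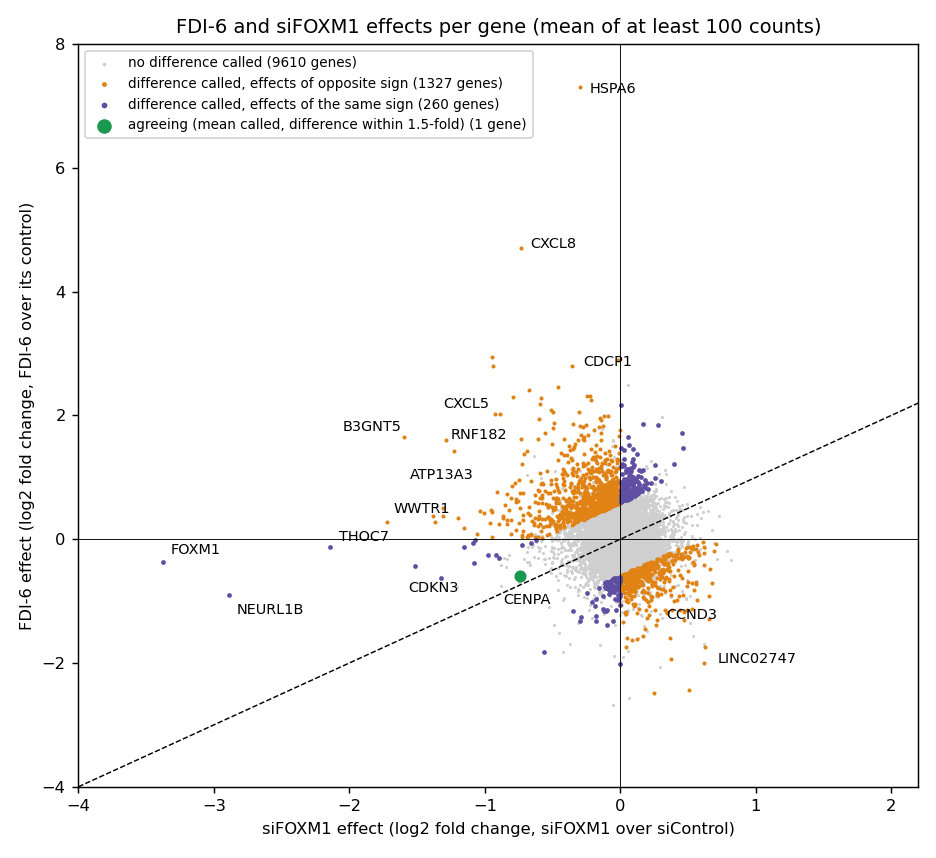
Log2 fold change with FDI-6 over its control (vertical axis) against log2 fold change in siFOXM1 over siControl (horizontal axis), 1 point for each gene averaging 100 counts or more, coloured by the call of the difference; the dashed line marks equal effects. Most points lie near the origin, and away from it few lie along the dashed line: FOXM1, NEURL1B and THOC7 spread along the siFOXM1 axis, CXCL8 and CDCP1 along the FDI-6 axis, and CENPA is the 1 agreeing gene.

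The size and direction of the FDI-6 effect also moved with the composition of the transcript. Genes were split into 4 bins of equal size. In the bin with the lowest GC content, 38.8% at its median, the median FDI-6 effect was 0.279, and 599 differences were called higher and 12 lower. In the bin with the highest GC content, 60.8% at its median, the median FDI-6 effect was -0.274, with 49 called higher and 332 lower. The siFOXM1 medians of the same bins were -0.026 and 0.014. Long transcripts behaved like those of low GC content: the median FDI-6 effect was 0.268 in the longest bin and -0.222 in the shortest. When trends on GC content and length were removed from each library, an alternative added after seeing the data, 1036 differences were called, 657 higher and 379 lower. The part of GC content and length in the results below was not tested beyond this correction.

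**Figure D2:**
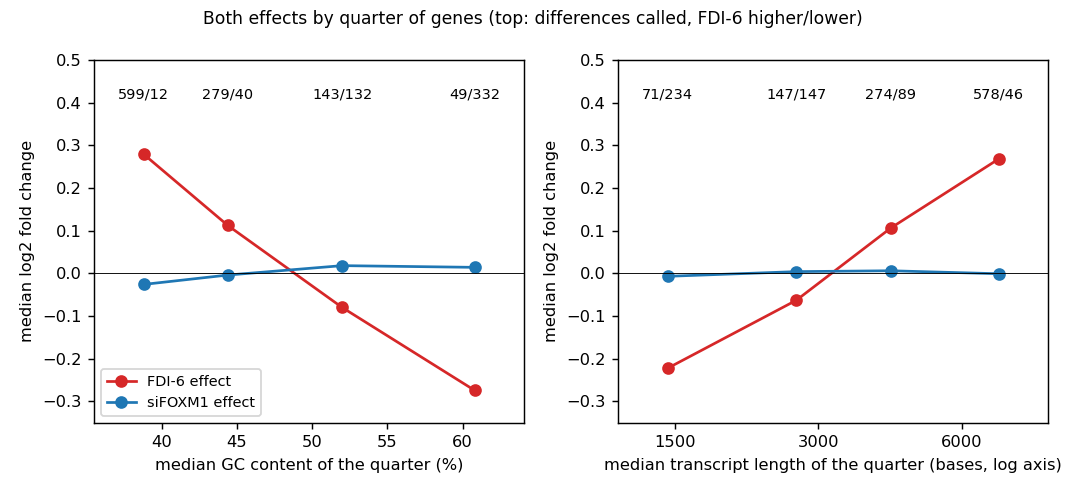
Median log2 fold change of FDI-6 (red) and siFOXM1 (blue) over 4 bins of genes ordered by GC content (left, percent) or length (right, bases, log axis) of the canonical transcript, with the number of differences called higher and lower printed above each bin. The FDI-6 line falls from 0.279 to -0.274 with GC content and rises from -0.222 to 0.268 with length, while the siFOXM1 line stays near 0.

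Agreement was rare when it had to be large and the difference narrowly bounded. It was read from the mean of both effects, which was called for 297 genes (1.74%), together with a 95% interval of the difference inside a 1.5-fold range either way. At any mean effect, 4847 genes (28.5%) met the condition on the interval. The opposing genes below had no like condition, so the 2 counts are not on equal terms. A single gene met both conditions (0.00587%), CENPA, the histone H3 variant that marks the centromere (chromosome 2, 26764289 to 26801067, plus strand, hg38). CENPA stood at 28.8, 26.3, 31.2 and 33.4 CPM in siControl and at 18.2, 16.7, 18.4 and 18.3 CPM in siFOXM1. With FDI-6 it stood at 30.3, 37.2 and 35.5 CPM against 56.0, 53 and 46.4 CPM in the controls. Treated libraries lay below all of their controls in both experiments, at 59.8% of the control mean in siFOXM1 and 66.2% with FDI-6. The log2 changes were -0.74 ± 0.09 in siFOXM1 (adjusted p = 0.00029) and -0.59 ± 0.10 with FDI-6 (adjusted p = 0.00089), and their difference of 0.15 had an interval of -0.15 to 0.44. CENPA is among the target genes that the study drew from these siRNA samples, so its fall in siFOXM1 is not independent evidence. In the libraries with FOXM1 and MYBL2 knocked down together, which have controls of their own and stand outside the contrast, CENPA changed by -1.88.

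Without the fold threshold on the mean effect, 786 genes (4.62%) had a mean effect past the test and a difference within 1.5-fold, 393 lower (2.31%) and 393 higher (2.31%). The mean can pass where 1 treatment carries it. With the siRNA libraries paired, 2071 genes (12.2%) met these conditions, 1038 lower and 1033 higher, among them 31 of the 84 late cell-cycle genes (36.9%). Late cell-cycle genes made up 15 of the 786, out of 84 on the list (17.9%), 14 of them lower. PTTG1, the securin that inhibits separase, the protease that parts sister chromatids, until anaphase, read 57.8, 62.6, 66.1 and 66.4 CPM in siControl and 40.1, 42.8, 48.3 and 45.4 CPM in siFOXM1. With FDI-6, PTTG1 read 105, 92.1 and 89.5 CPM against 138, 128 and 141 CPM in the controls. Its changes were almost equal, -0.50 ± 0.09 with FDI-6 (adjusted p = 0.00069) and -0.52 ± 0.07 in siFOXM1 (adjusted p = 0.0011), with a difference of 0.02 (interval -0.23 to 0.26). KIF2C, a kinesin that takes microtubules apart at the centromere, read 50.7, 52.2, 57.9 and 54.1 CPM in siControl and 36.5, 37.1, 40.2 and 38 CPM in siFOXM1. In the FDI-6 experiment KIF2C read 88.3, 81.5 and 81.7 CPM in the controls and 64.0, 68.3 and 59.6 CPM with FDI-6. The fall was 0.39 log2 units in size with FDI-6 (-0.39 ± 0.07, adjusted p = 0.0014) and of similar size in siFOXM1 (-0.50 ± 0.06, adjusted p = 0.00034), with no overlap of treated and control libraries in either. The mitotic cyclin gene CCNB2 changed by -0.32 in both, past the test with FDI-6 (adjusted p = 0.029) and not in siFOXM1 (adjusted p = 0.076). These 3 genes were chosen after their values were seen. PLK1 and UBE2C, a mitotic kinase and the ubiquitin-conjugating enzyme of the anaphase-promoting complex, also fell among the 15, but there FDI-6 carried the mean: PLK1 changed by -0.38 with FDI-6 and -0.08 in siFOXM1, and UBE2C by -0.50 and -0.14.

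The CHR sequences below are shown because they mark the promoters at which FOXM1 and its partners are known to act, and because the 4 genes were below control in both treatments, CENPA and CCNB2 by like amounts and CCNF and CDKN3 by more in siFOXM1. Sequences are from RefSeq (GRCh38.p14), 5′ to 3′ on the strand of the gene and upstream of its start site, with the CHR letters (TTTGAA or TTCGAA, either strand) in capitals.
CENPA, chr2:26786018-26786055, plus strand, 18 bases before the start: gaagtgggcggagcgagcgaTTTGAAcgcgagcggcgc
CCNB2, chr15:59105097-59105142, plus strand, 29 bases before the start: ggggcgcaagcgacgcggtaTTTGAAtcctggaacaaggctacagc
CCNF, chr16:2429342-2429387, plus strand, 85 bases before the start: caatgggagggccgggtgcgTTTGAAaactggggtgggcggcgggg
CDKN3, chr14:54396817-54396862, plus strand, 170 bases before the start: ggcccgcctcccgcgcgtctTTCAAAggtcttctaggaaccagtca
Promoter windows ran from 250 bases before to 50 after each RefSeq start, and 11905 of the 17026 genes tested had at least 1. The CHR letters were found in 15.6% of these genes and in 56 of 72 late cell-cycle genes with a window (77.8%). Late cell-cycle genes are a class known for this element, so the share of the list is not independent evidence. The late cell-cycle genes lower in siFOXM1 held the CHR letters in 6 of 12 with a window, a smaller share than in the whole list. CCAAT boxes, searched as CCAAT on both strands, were found in 42.4% of genes and in 77.8% of the late cell-cycle genes. The forkhead letters TAAACA were found in 10.4% and 6.94%. Of the 77 genes lower in siFOXM1 that were not on the late cell-cycle list, 13 held CHR letters (16.9%), a share near that of all genes. The windows of KIF2C and CCNB1 held no such letters. A match is a description of the letters and not a bound site.

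The late cell-cycle list as a whole leaned down in both treatments but through partly different members. Of 84 genes, 51 were below 0 in both, against 3861 of all 17026 genes tested. The medians were -0.145 with FDI-6, -0.119 in siFOXM1 and 0.019 for the difference, beside -0.013, 0.008 and -0.026 over all genes. The difference called 6 members above and 6 below with upper-quartile scaling. Its median turned to -0.04 with upper-quartile scaling and to -0.09 after the correction for GC content and length, so no direction can be given for the list. FDI-6 lowered 6 members and siFOXM1 lowered 14, and 2 were lowered by both, TROAP and CENPA. Over all genes FDI-6 lowered 4.41% and siFOXM1 0.681%. The difference was called for 10 members, 7 with FDI-6 above siFOXM1 and 3 below. That share, 11.9%, was near the 11.5% of all genes. After the correction for GC content and length 2 were called, both above. With both 95% intervals excluding 0, 15 members moved the same way and 4 opposite ways.

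The members that FOXM1 loss lowered and FDI-6 moved less were led by CDKN3, a phosphatase that acts on cyclin-dependent kinases. CDKN3 read 43.5, 41.6, 45.1 and 41.8 CPM in siControl and 14.8, 14.5, 16.3 and 14.4 CPM in siFOXM1. With FDI-6 it read 57.9, 56.2 and 49.5 CPM against 78.0, 70.0 and 71.6 CPM. Both treatments lowered it with no overlap, to 34.9% and 74.5% of control, and the difference of 1.09 (interval 0.87 to 1.32) passed the test (adjusted p = 1.5e-05). TROAP, which encodes a spindle protein, was lowered by both to unlike degrees, -1.32 ± 0.11 in siFOXM1 and -0.63 ± 0.13 with FDI-6. Its values were 38, 37.6, 49.6 and 35.3 CPM in siControl, 15.3, 16.8, 18.4 and 13.7 CPM in siFOXM1, 51.2, 57.2 and 52.8 CPM in the FDI-6 controls and 31.8, 36.6 and 36.0 CPM with FDI-6. The difference for TROAP was 0.70 (adjusted p = 0.010), and without siControl replicate 3 it was 0.577, under the fold threshold. NEK2, a centrosomal kinase, changed by -0.92 in siFOXM1 and -0.26 with FDI-6, a difference of 0.66 (adjusted p = 0.0033) that was 0.549 without FDI6 replicate 1 and 0.545 after the correction for GC content and length. TROAP and NEK2 were chosen after their values were seen.

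A second set fell with FDI-6 and differed from the knockdown. BIRC5, the survivin of the chromosomal passenger complex, read 300.3, 277 and 285 CPM in the FDI-6 controls and 184, 194 and 183 CPM with FDI-6, 65.0% of control. In siFOXM1 it read 154, 170.3, 180.1 and 145 CPM, within the siControl values of 163, 169.6, 181 and 142 CPM. The effects were -0.62 ± 0.09 (adjusted p = 0.00027) and -0.01 ± 0.08 (adjusted p = 0.97), and the difference was -0.61 (interval -0.87 to -0.35, adjusted p = 0.0033). That difference lies at the fold threshold: it was -0.544 without siControl replicate 4, -0.548 without siFOXM1 replicate 3, -0.572 without control_FDI6 replicate 1, -0.578 without siFOXM1 replicate 2, -0.582 without FDI6 replicate 3 and -0.514 after the correction for GC content and length, all under 1.5-fold. BIRC5 was chosen after its values were seen. PSRC1, a microtubule-binding spindle protein, was lower with FDI-6 (22.3, 22.5 and 23.4 CPM against 34.3, 34.6 and 31.2 CPM) and leaned higher in siFOXM1 (28.0, 25.6, 35.2 and 24.3 CPM against 22.0, 22.8, 27.1 and 20.6 CPM). Only the FDI-6 libraries stood clear of all their controls, though each siFOXM1 library lay above the siControl library of its number. Its effects were -0.55 ± 0.13 (adjusted p = 0.0059) and 0.29 ± 0.11 (adjusted p = 0.24), and the difference of -0.84 passed the test (adjusted p = 0.0035), while after the correction for GC content and length it was -0.578, under the fold threshold.

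GAS2L3, which links actin and microtubules in dividing cells, opposed. It read 34, 35, 37.0 and 34.1 CPM in siControl and 22.3, 22.9, 25.1 and 20.0 CPM in siFOXM1, and 28.9, 27.6 and 28.1 CPM in the FDI-6 controls against 38.5, 31.6 and 31.5 CPM with FDI-6. Every siFOXM1 library lay below siControl and every FDI-6 library above its controls. The siFOXM1 effect was -0.63 ± 0.08 (adjusted p = 0.00045), the FDI-6 effect 0.26 ± 0.10 (adjusted p = 0.055) and the difference 0.90 (adjusted p = 0.00028), or 0.452 after the correction for GC content and length.

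**Figure D3:**
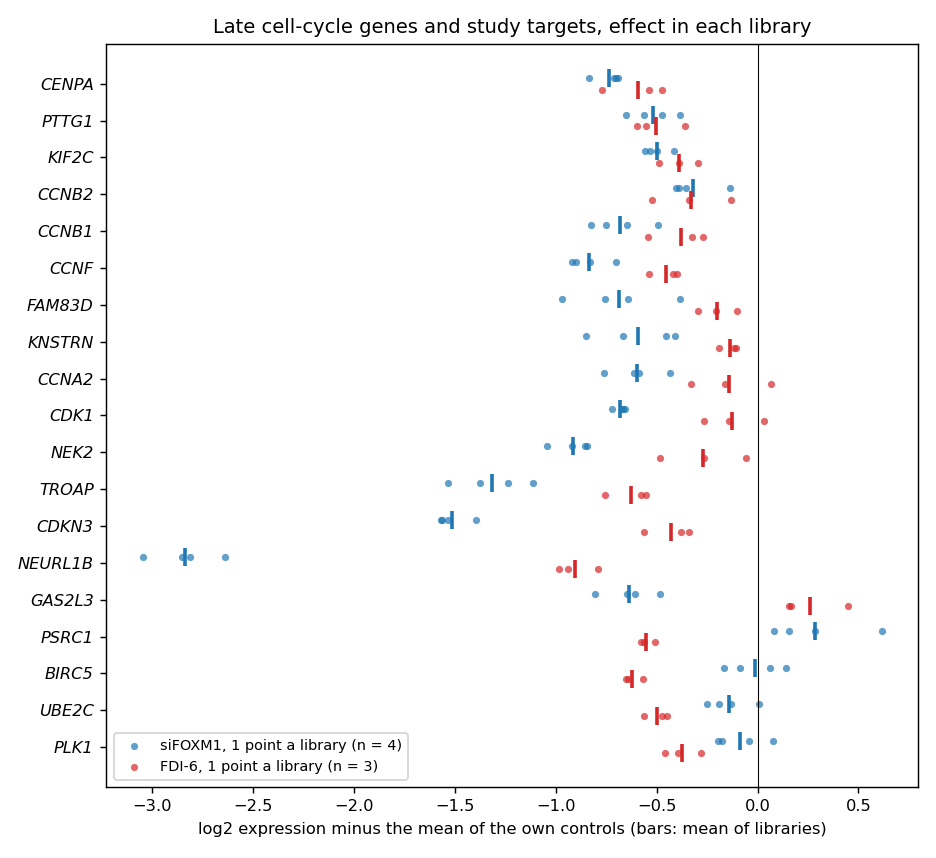
Effect in each treated library, as log2 expression minus the mean of its own controls, for 19 late cell-cycle genes and study targets, with siFOXM1 in blue (4 points) and FDI-6 in red (3 points) and bars at the means. The red and blue points overlap for CENPA, PTTG1, KIF2C and CCNB2 and lie apart for CDKN3, NEURL1B, GAS2L3, PSRC1 and BIRC5.

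The study names 10 target genes of the MYBL2 and FOXM1 pair, chosen on the siRNA samples, so their fall in siFOXM1 is given as a description. All 10 were below 0 in both treatments, with medians of -0.684 in siFOXM1 and -0.287 with FDI-6. FDI-6 lowered 2 of them past the fold threshold, CENPA and NEURL1B. The difference was called for 2, CDKN3 and NEURL1B, both with the larger fall in siFOXM1. NEURL1B, an E3 ubiquitin ligase that acts on Notch ligands, read 9.16, 7.45, 13.2 and 10.4 CPM in siControl and 1.15, 1.36, 1.32 and 1.54 CPM in siFOXM1. With FDI-6 it read 10.4, 11.9 and 10.7 CPM against 20.3, 21.6 and 19.9 CPM. The siRNA left 13.4% of control and FDI-6 left 53.4%, a difference of 1.99 (interval 1.48 to 2.49, adjusted p = 6.9e-05). CCNB1, the cyclin that activates CDK1 at mitosis, read 212, 224, 229 and 194 CPM in siControl against 128, 137, 152 and 121 CPM in siFOXM1, and 303, 303 and 302 CPM in the FDI-6 controls against 251, 242 and 208 CPM. Its changes were -0.68 ± 0.08 and -0.37 ± 0.09, both past the test (adjusted p = 0.0002 and 0.0078), and the difference of 0.30 did not pass (adjusted p = 0.093). CDK1 itself changed by -0.68 in siFOXM1 and -0.12 with FDI-6, a difference of 0.56 that passed the test (adjusted p = 0.001) and missed the fold threshold. CCNF, an F-box cyclin, changed by -0.84 and -0.45, and KNSTRN, FAM83D, CCNA2 and BORA by -0.59 to -0.69 in siFOXM1 and by -0.12 to -0.20 with FDI-6. For BORA, 37.0% of the exon length overlaps an antisense gene, and the strand setting of the counting is not stated.

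Outside the cell cycle, THOC7, WWTR1 and FKBP5 fell strongly in siFOXM1 and did not follow with FDI-6, unlike NEURL1B above. THOC7, a subunit of the complex that couples transcription to mRNA export, read 46.0, 45.9, 46.3 and 42.6 CPM in siControl and 9.0, 12.5, 9.20 and 10.4 CPM in siFOXM1. With FDI-6 it read 55.6, 47.2 and 44.5 CPM against 54.9, 50.8 and 55.8 CPM, so those groups overlapped. The effects were -2.14 ± 0.10 (adjusted p = 1.2e-08) and -0.13 ± 0.11 (adjusted p = 0.40), with a difference of 2.01 (adjusted p = 3.2e-06). WWTR1, which encodes the Hippo pathway co-activator TAZ, read 207, 188, 205 and 244 CPM in siControl and 66.1, 63.4, 51.7 and 74.4 CPM in siFOXM1. The FDI-6 libraries read 195, 161 and 166 CPM, all above their controls at 145, 138 and 149 CPM. The siFOXM1 effect was -1.72 ± 0.11 (adjusted p = 2.5e-07), the FDI-6 effect 0.27 ± 0.12 (adjusted p = 0.11) and the difference 2.0 (interval 1.65 to 2.34). FKBP5, a co-chaperone of steroid receptors, read 60.7, 55.5, 60.5 and 66.8 CPM in siControl and 28.7, 27.1, 26.1 and 27.7 CPM in siFOXM1, while FDI-6 and its controls overlapped (45.8, 44.2 and 39.8 against 45.6, 48.0 and 48.2 CPM). The difference for FKBP5 was 1.03 (adjusted p = 2.3e-05). Of the genes higher in siFOXM1, IL3RA, a cytokine receptor chain, and PSKH1, a kinase, had differences of -1.37 and -0.78, the latter at -0.543 after the correction for GC content and length, and AMMECR1 was higher in both (0.73 and 0.37).

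The FDI-6 effect on the genes that the knockdown lowered was read from other libraries than the siFOXM1 effect, but in the same fit. The FDI-6 libraries thus entered the filter, the scaling and the variance estimates behind the choice of genes. Without FDI6 replicate 1, 123 genes were called lower in siFOXM1. Of the 116 genes lower in siFOXM1, 79 had an FDI-6 effect above 0, and the median FDI-6 effect was 0.26, against -0.013 over all genes. FDI-6 raised 25 of the 116 past the threshold (21.6%, against 6.61% of all genes) and lowered 5 (4.31%, against 4.41%). Without the late cell-cycle members, FDI-6 raised 25 and lowered 3 of 102. The 116 genes had a median GC content of 41.8%, against 48.8% over all genes, and a low GC content went with a higher FDI-6 effect throughout, as given above. Of the 22 genes higher in siFOXM1, FDI-6 lowered 3. In all, 33 genes were called in both treatments (0.194% of genes tested), of which 5 moved the same way (0.0294%), all lower: NEURL1B, TROAP, CENPA, NMU and PALM3. NMU, a neuropeptide gene, changed by -1.59 in siFOXM1 and -0.80 with FDI-6, and PALM3, a membrane-associated paralemmin gene, by -1.08 and -1.75, at mean counts of 17.6 and 56.2.

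Opposition was the more frequent pattern. Of the called differences, 1656 (9.73% of genes tested) had effects of opposite sign, 1043 with FDI-6 higher and siFOXM1 lower (6.13%) and 613 the reverse (3.6%). Calling a gene on the difference favours opposite signs where 1 effect is near 0, so the count was repeated with both 95% intervals excluding 0, with no call in either. Then 714 genes (4.19%) moved opposite ways and 392 (2.3%) the same way. Of the 714, FDI-6 was higher and siFOXM1 lower in 487 (2.86%) and the reverse in 227 (1.33%). With the siRNA libraries paired, the counts were 1470 opposite and 838 the same way.

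ATP13A3, a polyamine transporter of the P5 ATPase family (chromosome 3, 194402672 to 194498364, minus strand), was the clearest opposing gene at high expression. It read 206, 209, 225 and 234 CPM in siControl and 128, 123, 116 and 134 CPM in siFOXM1, and 99.1, 101 and 103 CPM in the FDI-6 controls against 197, 179.9 and 175 CPM with FDI-6. The knockdown left 57.3% of control and FDI-6 gave a 1.82-fold level, with no overlap in either experiment. The difference was 1.67 (interval 1.46 to 1.88, adjusted p = 3.4e-07). B3GNT5, which starts the lacto-series glycolipids, read 30.5, 33.0, 26.1 and 18.9 CPM in siControl, 10.4, 12.5, 7.12 and 5.98 CPM in siFOXM1, 5.78, 4.67 and 5.59 CPM in the FDI-6 controls and 17.6, 14.6 and 17.8 CPM with FDI-6. The changes were -1.60 ± 0.21 and 1.64 ± 0.26, nearly equal in size. FDI-6 raised B3GNT5 3.12-fold, to values below every siControl library, since the FDI-6 controls lay far below the siControl libraries. RNF182, an E3 ubiquitin ligase, read 2.81, 2.53, 3.34 and 2.36 CPM in siControl and 1.11, 1.2, 1.32 and 0.887 CPM in siFOXM1, and rose from 7.35, 8.18 and 7.96 CPM to 25.0, 22.9 and 23.3 CPM with FDI-6. Its difference was 2.89 (adjusted p = 2.2e-06). Among further genes called both ways, chosen after their values were seen, MAPK6, an atypical MAP kinase, changed by 0.73 with FDI-6 and -0.83 in siFOXM1, SLC4A7, a bicarbonate transporter, by 1.22 and -0.72, and CD47, the surface signal that restrains phagocytosis, by 0.66 and -0.60.

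In the reverse orientation, LINC02747, a long noncoding RNA (chromosome 11, 69475567 to 69481545, minus strand), read 6.31, 6.92, 6.4 and 6.74 CPM in siControl and 8.69, 8.94, 11.6 and 11.2 CPM in siFOXM1, and fell from 5.08, 4.43 and 4.25 CPM to 0.726, 1.39 and 1.28 CPM with FDI-6. The difference was -2.62 (adjusted p = 1.8e-05). COL1A1, a chain of type I collagen, read 14.9, 12.8, 26.8 and 27.2 CPM in siControl and 28.5, 18.9, 45.1 and 35.9 CPM in siFOXM1, overlapping groups whose values went by replicate number, and 17.3, 18.8 and 17.5 CPM in the FDI-6 controls against 4.90, 8.71 and 8.38 CPM. The siFOXM1 effect on COL1A1 was 0.65 ± 0.27 (adjusted p = 0.30, or 0.00059 with the siRNA libraries paired), the FDI-6 effect -1.28 ± 0.34 (adjusted p = 0.012) and the difference -1.94 (adjusted p = 0.0064). CCND1 and CCND3, cyclins of G1, parted: CCND1 differed by 0.92 (adjusted p = 0.0037) and CCND3 by -1.40 (adjusted p = 0.00053). CCND1 read 369.9, 461, 427 and 301 CPM in siControl, 251, 304, 268 and 202 CPM in siFOXM1, 362, 364 and 362 CPM in the FDI-6 controls and 461, 451 and 446 CPM with FDI-6. CCND3 read 103, 104, 106 and 149 CPM, 117, 125, 128 and 182 CPM, 295, 296 and 272 CPM, and 114, 145 and 131 CPM in the same order. The siRNA groups overlapped for both cyclins, the FDI-6 groups for neither. Each siFOXM1 library still lay below the siControl library of its number for CCND1 and above it for CCND3.

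**Figure D4:**
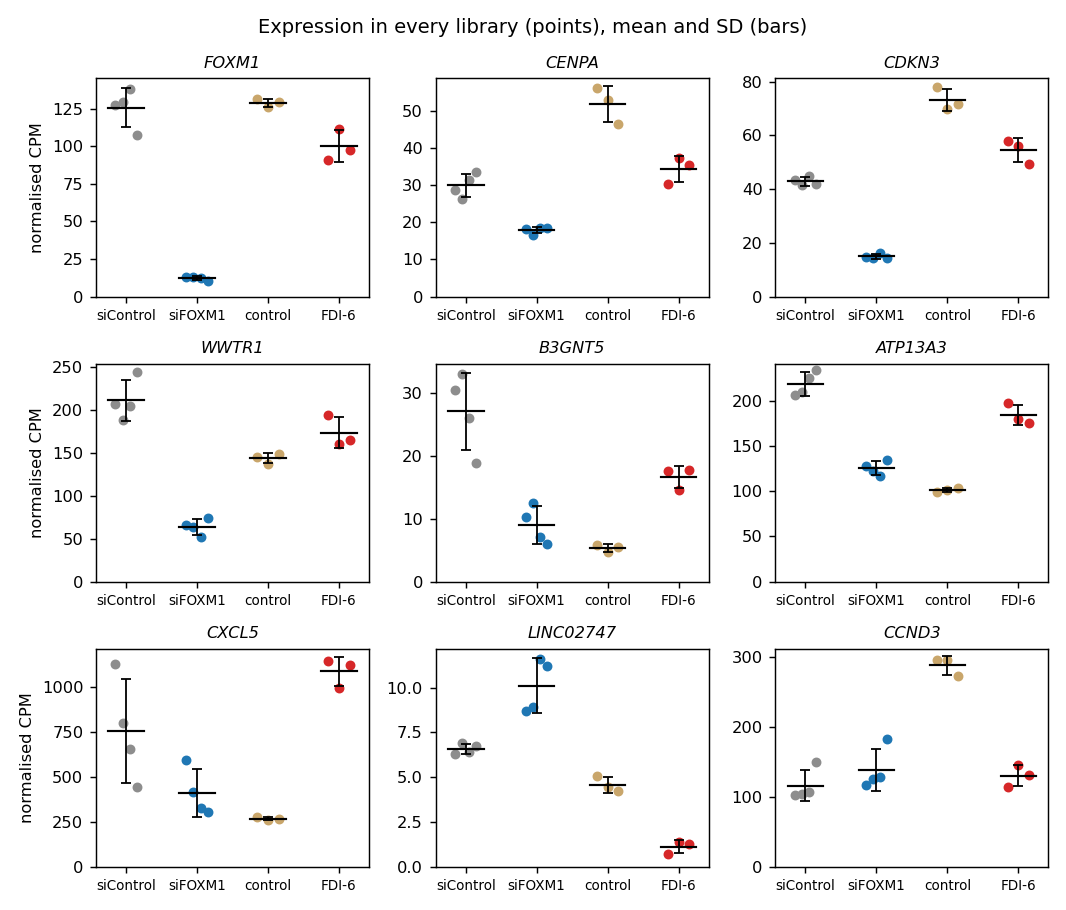
Normalised CPM (vertical axes, from 0) of 9 genes in every library of the 4 groups, with the mean and SD. FOXM1, CENPA and CDKN3 fall in both treatments, WWTR1 falls in siFOXM1, B3GNT5, ATP13A3 and CXCL5 fall in siFOXM1 and rise with FDI-6, and LINC02747 and CCND3 fall with FDI-6.

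The NF-κB targets and chemokines held many of the called differences. Of 25 genes tested 17 were called (68.0%, against 11.5% of all genes), all with FDI-6 higher. The medians were 1.649 with FDI-6, -0.211 in siFOXM1 and 1.591 for the difference. FDI-6 raised 18 of the 25, and in siFOXM1 20 of the 25 lay below 0. CXCL8, the chemokine interleukin-8 that draws neutrophils, read 1.78, 2.12 and 2.69 CPM in the FDI-6 controls and 63.3, 49.9 and 59.4 CPM with FDI-6, 26.2-fold. In siControl it read 104, 81.4, 55.1 and 11.7 CPM and in siFOXM1 53.3, 53.8, 34.3 and 10.8 CPM. The FDI-6 groups lay far apart and the siRNA groups overlapped, and 3 of the 4 siControl libraries lay at or above the lowest FDI-6 value. The difference was 5.44 (interval 3.52 to 7.37, adjusted p = 0.0009), and the siFOXM1 effect of -0.73 (adjusted p = 0.62) was called only with the siRNA libraries paired (-0.64, adjusted p = 0.00047). CXCL5, a chemokine of the same family, read 1129, 802.5, 656.4 and 442.9 CPM in siControl and 595.2, 415.6, 324.9 and 304.6 CPM in siFOXM1. With FDI-6 it read 1146, 996.6 and 1124 CPM against 275.6, 261.6 and 269.0 CPM. Each siFOXM1 library lay below the siControl library of its number. The siFOXM1 effect on CXCL5 was -0.89 ± 0.24 (adjusted p = 0.067, or 8.2e-08 with the siRNA libraries paired) and the FDI-6 effect 2.02 ± 0.28 (adjusted p = 0.00016). CXCL1 read 113, 61.4, 66.3 and 12.1 CPM in siControl, 58.3, 34.5, 29.8 and 9.13 CPM in siFOXM1, 6.05, 7.26 and 8.28 CPM in the FDI-6 controls and 55.1, 53.1 and 57.8 CPM with FDI-6. Its difference was 3.89 (adjusted p = 0.0049), and those of CXCL2 and CXCL3 were 3.74 and 2.94. In siFOXM1 these 3 changed by -0.94, -0.94 and -0.93, called only with the siRNA libraries paired (-0.88, -0.84 and -0.82). CXCL1, CXCL2 and CXCL3 are near-identical copies, so reads may be split between them.

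The κB elements below are shown for 4 neighbouring genes of chromosome 4 that lay above control with FDI-6 and leaned below it in siFOXM1. Their siFOXM1 effects passed the test only with the siRNA libraries paired. All 4 hold the same core (GGG and TTCC with any 3 bases between them, searched on both strands, with overlapping matches joined, in capitals).
CXCL1, chr4:73869294-73869344, plus strand, 79 bases before the start: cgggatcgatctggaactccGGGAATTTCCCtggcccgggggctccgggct
CXCL2, chr4:74099243-74099293, minus strand, 78 bases before the start: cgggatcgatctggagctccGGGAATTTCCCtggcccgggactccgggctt
CXCL3, chr4:74038738-74038788, minus strand, 79 bases before the start: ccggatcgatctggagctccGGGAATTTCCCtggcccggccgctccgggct
CXCL5, chr4:73998738-73998788, minus strand, 91 bases before the start: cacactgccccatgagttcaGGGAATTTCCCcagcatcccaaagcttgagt
These letters were found in 16 of the 21 list members with a window (76.2%), against 9.84% of all genes with one. The list was made of NF-κB targets and chemokines, so its share is a description and not independent evidence. The window of CXCL8 held no match to these letters, which does not show that it lacks a κB element of another form. Of all genes that FDI-6 raised, 11.4% held the letters, a share near that of all genes.

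Other signalling lists went the same way. The AP-1 and immediate-early list had 8 of 19 genes called higher and 1 lower (47.4%, against 11.5% of all genes). Its median difference was 0.751, and it was led by EGR1 (2.06 with FDI-6, -0.50 in siFOXM1) and ATF3 (1.88 and -0.49). The ERK feedback list, genes that ERK induces and that often restrain it, had 12 of 20 called, all higher. There the phosphatase gene DUSP5 changed by 1.85 and 0.27, the growth factor gene EREG by 1.79 and -0.50, and SPRY4 by 1.29 and 0.10. For YAP and TAZ targets and partners, 6 of 22 were called higher (27.3%). NT5E, the ecto-enzyme CD73, read 58.3, 57.2 and 64.2 CPM in the FDI-6 controls and 235, 202 and 216 CPM with FDI-6, while siFOXM1 at 221, 225, 217 and 201 CPM overlapped siControl at 285, 291, 302 and 219.9 CPM. Each siFOXM1 library still lay below the siControl library of its number for NT5E. The difference for NT5E was 2.21 (adjusted p = 5.6e-07). ITGA2, the collagen-binding integrin chain, rose 5.00-fold with FDI-6, from 37.2, 38.1 and 37.1 CPM to 193, 166 and 203 CPM, and read 201, 234, 179.7 and 167 CPM in siControl against 176, 193, 139.5 and 160.5 CPM in siFOXM1. With FDI-6, NT5E and ITGA2 went from a low control level into the range of the siRNA libraries.

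The stress lists followed. In the list of ER and integrated stress genes 10 of 34 were called, all higher (29.4%, against 11.5% of all genes). The medians were 0.142 with FDI-6 and -0.118 in siFOXM1, and 6 were called with upper-quartile scaling. TRIB3, a pseudokinase induced by ATF4, read 81.1, 75.5 and 77.9 CPM in the FDI-6 controls and 159, 174 and 210.1 CPM with FDI-6, against 134, 143, 120.1 and 147 CPM in siControl and 110.2, 116, 99.2 and 111 CPM in siFOXM1. Both pairs of groups were free of overlap, in opposite directions, with effects of 1.21 ± 0.10 (adjusted p = 4.5e-06) and -0.32 ± 0.09 (adjusted p = 0.074). STC2 and DDIT3, a secreted glycoprotein and the factor CHOP, had differences of 1.75 and 1.83; 31.6% of the DDIT3 exon length overlaps an antisense gene. HSPA6, an inducible HSP70, had the largest difference among genes averaging 100 counts or more, 7.60 (interval 5.70 to 9.5). It read 0.648, 1.11 and 0.376 CPM in the FDI-6 controls and 90.1, 104 and 152 CPM with FDI-6, 162-fold, and 0.337 to 3.02 CPM in all siRNA libraries, with no separation there. HSPA6 is close in sequence to other HSP70 genes, so reads may be split. The heat shock list, which does not hold HSPA6, had 3 of 32 called higher and 1 lower. That share, 12.5%, was near the 11.5% of all genes. Its median FDI-6 effect was 0.116 and its largest difference 3.07. The letters GAANNTTC of heat shock factor sites, searched on both strands, were found in 15 of 28 windows of that list (53.6%) and in 6.59% of all genes. As the list was made of heat shock genes, its share is a description only. MT2A, a metallothionein that binds zinc and copper, read 298, 269.7 and 308 CPM in the FDI-6 controls and 953, 787 and 805 CPM with FDI-6, and 257, 182, 317 and 152 CPM in siControl against 174, 163, 259 and 124 CPM in siFOXM1. The MT2A difference was 1.87 (adjusted p = 0.0014). Of the p53 targets 10 of 30 were called higher and 1 lower (36.7%), or 6 and 1 after the correction for GC content and length. TNFRSF10B, a death receptor of TRAIL, changed by 0.77 with FDI-6 and -0.35 in siFOXM1, and TP53INP1 by 0.99 and -0.11. CDKN1A, which encodes p21, read 0.18 and 0.25, neither past the test (adjusted p = 0.47 and 0.55). With the siRNA libraries paired, the mean of both effects on CDKN1A, 0.216, passed the test (adjusted p = 0.0019) at a size under 1.5-fold. Among regulators of apoptosis, MCL1, the anti-apoptotic BCL2 relative, read 194, 203 and 199.8 CPM in the FDI-6 controls, 432, 423 and 502 CPM with FDI-6, 444, 447, 396 and 374 CPM in siControl and 435, 425, 408 and 418 CPM in siFOXM1. PMAIP1, its partner NOXA, changed by 1.10 with FDI-6 and -0.10 in siFOXM1.

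Lists with FDI-6 below siFOXM1 were mainly metabolic and hepatic. Differences were called in 17.6% of the NRF2, 18.9% of the nuclear respiratory and 14.3% of the hepatic list, against 11.5% of all genes. NRF2 antioxidant genes had 6 of 34 called, all lower, with medians of -0.405 with FDI-6 and 0.02 in siFOXM1. AKR1C2, an aldo-keto reductase, read 1391, 1331 and 1296 CPM in the FDI-6 controls and 615.8, 573.7 and 597.8 CPM with FDI-6, and 1827, 1510, 1566 and 2731 CPM in siControl against 1893, 1590, 1536 and 2849 CPM in siFOXM1. The siRNA groups overlapped throughout, and the difference was -1.21 (adjusted p = 0.010). AKR1C1, AKR1C2 and AKR1C3 share most of their sequence, so their values are uncertain relative to each other. AKR1C1 is also among the 8 lung epithelial markers, whose summed level was lower with FDI-6. Nuclear genes of the respiratory chain had 1 of 53 called higher and 9 lower, with a median FDI-6 effect of -0.356 and a siFOXM1 median of 0.032. After the correction for GC content and length the calls were 1 and 3. NDUFA1, a subunit of complex I, changed by -0.92 with FDI-6 and by less than 0.01 in siFOXM1. Hepatic and acute-phase genes, which A549 cells express in part, had 2 of 14 called, both lower, or 8 with the siRNA libraries paired, all lower, with a median difference of -1.187, or -0.60 without siFOXM1 replicate 4. Of these HNF4A, a hepatic nuclear receptor, changed by -1.01 and 0.20. FGA, the fibrinogen alpha chain, read 19.6, 18.7 and 19.5 CPM in the FDI-6 controls and 3.15, 3.48 and 3.66 CPM with FDI-6, and 50.7, 66.4, 34.7 and 179 CPM in siControl against 65.3, 81.7, 42.3 and 202 CPM in siFOXM1. The difference of -2.73 passed the test (adjusted p = 0.032), but not without siControl replicate 1 or 2 or any library of the FDI-6 experiment, with adjusted p between 0.0532 and 0.0833, the highest without FDI6 replicate 1. SAMD11 had the largest negative difference among called genes averaging 100 counts or more, -2.95 (adjusted p = 0.013). It read 43.4, 47.7 and 41.1 CPM in the FDI-6 controls, 5.75, 9.52 and 8.99 CPM with FDI-6, 12.7, 13.3, 12.1 and 54.1 CPM in siControl and 25.8, 19.6, 20.5 and 64.6 CPM in siFOXM1. The siRNA groups overlapped, and the siFOXM1 effect on SAMD11 of 0.51 was called with the siRNA libraries paired (0.62, adjusted p = 0.0019).

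**Figure D5:**
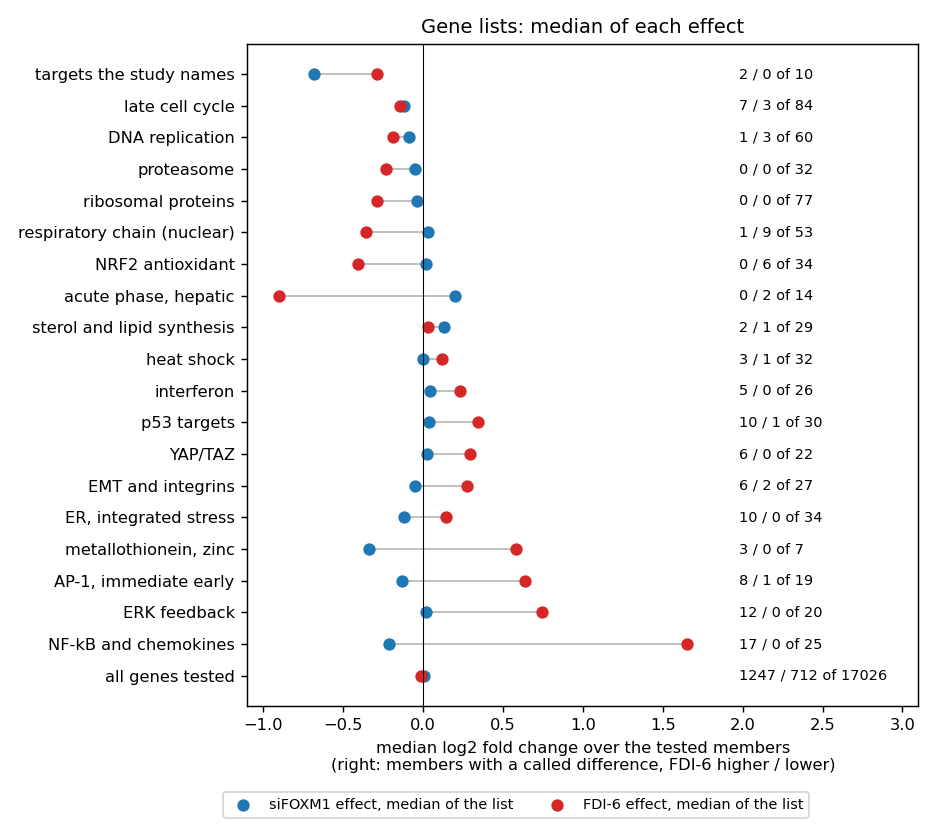
Median log2 fold change over the tested members of each gene list, with FDI-6 in red and siFOXM1 in blue and, at the right, the members whose difference was called higher and lower. The NF-κB list reaches 1.649 with FDI-6 and the hepatic list -0.9, while the siFOXM1 medians lie between -0.684 for the study's targets and 0.197.

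Genes of growth and protein turnover fell a little with FDI-6. In the proteasome list 13 of 32 genes (40.6%, against 4.62% of all genes) had a mean effect past the test with a difference within 1.5-fold, all lower. Of 77 ribosomal protein genes 28 (36.4%) did, all lower. The FDI-6 medians of these lists were -0.229 and -0.286 and the siFOXM1 medians -0.048 and -0.038, so the mean effect came mostly from FDI-6, and 1 gene of each list had both 95% intervals excluding 0 in the same direction. With the siRNA libraries paired the counts were 17 and 40. After the correction for GC content and length the FDI-6 medians were -0.16 and -0.13. DNA replication genes had 9 of 60 in this class, or 23 with the siRNA libraries paired, all lower, with medians of -0.188 and -0.087. Their difference was called for 4 (6.67%, against 11.5% of all genes). Among them POLA2, a subunit of the primase complex, changed by -0.95 with FDI-6 and -0.01 in siFOXM1 (difference -0.94, adjusted p = 0.0021).

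Among 23 forkhead factors 6 differences were called higher and 1 lower (30.4%, against 11.5% of all genes). FOXM1, the target of the siRNA, is 1 of the 6. After the correction for GC content and length 4 forkhead differences were called higher and 0 lower. FOXQ1 differed by 1.71 (0.96 with FDI-6, -0.75 in siFOXM1, the latter called only with the siRNA libraries paired, adjusted p = 0.012), FOXN3 by 0.91 and FOXN2 by 0.82, the last at 0.311 after the correction for GC content and length. FOXA1 and FOXA2, pioneer factors of lung and liver, changed by -0.32 and -0.58 with FDI-6 and by 0.14 and -0.19 in siFOXM1, none past the test. With the siRNA libraries paired, the mean of both effects on FOXA2, -0.387, passed the test (adjusted p = 0.00042) at a size under 1.5-fold. Of 31 genes of the MuvB, RB and E2F group, the differences of 3 were called higher and 3 lower (19.4%). Their median of 0.005 turned to -0.05 with upper-quartile scaling, and 1 was called higher and 2 lower after the correction for GC content and length. CDKN2C, an inhibitor of CDK4 and CDK6, was lower with FDI-6 and leaned the same way in siFOXM1: it read 47.2, 42.8 and 42.8 CPM in the FDI-6 controls and 14.4, 21.2 and 17.5 CPM with FDI-6, and 38.5, 34.1, 37.4 and 47.3 CPM in siControl against 32.2, 28.5, 30.3 and 37.0 CPM in siFOXM1. The siRNA groups overlapped, though each siFOXM1 library lay below its siControl number. The CDKN2C difference was -1.02 (adjusted p = 0.0018), and 20.4% of its exon length overlaps an antisense gene. CDCP1, a transmembrane substrate of SRC kinases, closed the list of large differences at 3.16, with 13.4, 15.3 and 16.5 CPM in the FDI-6 controls, 103, 94.8 and 118 CPM with FDI-6, 106, 96.8, 67.1 and 46.7 CPM in siControl and 77, 77.9, 55.5 and 37.2 CPM in siFOXM1.

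In the remaining lists the share called ran from 6.9% (glycolysis and hypoxia) to 42.9% (metallothionein and zinc), against 11.5% of all genes. Homologous recombination genes had 3 of 24 called higher and 2 lower, and none of these calls held after the correction for GC content and length, where the median turned from 0.10 to -0.11. Of the sterol and lipid synthesis genes 2 of 29 were called higher and 1 lower, SREBF1, a transcription factor of lipid synthesis. After the correction for GC content and length 1 of the 3 was called, higher. Among 26 interferon genes 5 were called, all higher, among 28 autophagy and lysosome genes 6 higher and 3 lower, and among 27 genes of integrins and the mesenchymal state 6 higher and 2 lower (7 and 5 with the siRNA libraries paired). After the correction for GC content and length the counts called higher and lower were 3 and 0, 4 and 1, and 5 and 0 in these lists. The integrin chain ITGA6, which binds laminin, changed by 1.07 with FDI-6 and -0.41 in siFOXM1. Of 16 BCL2 family and apoptosis genes 3 were called higher. BIRC3, an inhibitor of apoptosis that NF-κB induces and not among the 16, changed by 2.19 with FDI-6 and -0.59 in siFOXM1. Glucocorticoid targets had 3 of 13 called higher, TGF-β targets 2 of 23 higher and 2 lower (3 and 5 with the siRNA libraries paired), metallothionein and zinc genes 3 of 7 higher (1 after the correction for GC content and length), glycolysis and hypoxia genes 2 of 29 higher (neither after that correction), and mitochondrially encoded respiratory genes 1 of 13 lower. In the glycolysis list the median difference of -0.20 was -0.01 without siFOXM1 replicate 4.

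The cells with FOXM1 and MYBL2 knocked down together give a second loss of FOXM1, with 3 libraries and 3 controls of their own, set beside the values above with no test between them. FOXM1 changed there by -3.37, CDKN3 by -2.17, NEURL1B by -2.59, THOC7 by -1.73 and WWTR1 by -1.98, all lower as in siFOXM1. Of the opposing genes, ATP13A3 changed by -0.61 and B3GNT5 by -1.13, and RNF182 by -0.86 without passing the test (adjusted p = 0.26). CXCL1, CXCL5 and CXCL8 changed by 0.43, -0.28 and 0.80, none past the test (adjusted p = 0.47, 0.51 and 0.13). CCND3 changed by -0.64 there (adjusted p = 0.006), below its controls as with FDI-6.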

How the data were processed

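Poly(A) RNA of A549 cells was sequenced with paired 150 bp ends. The authors trimmed reads with Trim Galore, aligned them with STAR to hg38 and counted them per gene with HTSeq, and deposited the raw counts of each library. Versions and the strand setting of the counting are not given in the sources used here. HTSeq's summary lines (no feature 3.75% to 4.93% and ambiguous 9.25% to 11.2% of each library) were left out of library sizes. Of 58721 gene IDs, 58207 matched a symbol of the reference annotation.

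The counts of the 4 groups were filtered with filterByExpr, scaled by TMM and tested with edgeR 4.0.16 (quasi-likelihood, group means, Benjamini-Hochberg adjustment over 17026 genes) in R 4.3.3. The contrasts were FDI-6 minus its control, siFOXM1 minus siControl, their difference and their mean, with 10 residual degrees of freedom. SEs are the size of the log2 fold change divided by the root of F, and intervals are at 95%. Depth ran from 16487394 to 30140550 counted pairs a library, and no pair of replicates agreed within sampling noise. The scripts were tested on simulated data.

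Same-numbered siRNA libraries deviated from their group means together (lowest correlation 0.532, 8 of 8 libraries nearest to their own number). Same-numbered libraries of the FDI-6 experiment did not (lowest correlation -0.291). A second, blocked fit therefore took siFOXM1 and siControl numbers as pairs. The main counts and calls ignore the pairs, and results of the blocked fit are given beside part of them.

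Named genes were FOXM1 and MYBL2, the study's 10 targets, earlier named siFOXM1 responders, the largest called differences in each direction, the opposing genes with the largest smaller effect, agreeing genes, up to 4 members of each list, and the forkhead, MuvB, RB and E2F members, with 100 counts a library on average. Genes outside this rule are marked as chosen after their values were seen, as are UBE2C and PLK1. Members and lists were chosen with earlier results of these data known. Alternatives were other scalings, filters, fold rules, replicate blocks, DESeq2 1.42.0, all 24 libraries and leaving out each library, with corrections for GC content and length added after seeing the data. Columns of the authors' own comparisons were not used.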

Additional observations from a re-analysis of the deposited data

Results flagged for a closer look

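For 36 genes whose values the text prints, the siControl and siFOXM1 groups (72 groups of 4 libraries) were searched for a library whose gap to its nearest neighbour, as a share of the range of the group, passed Dixon's 95% critical value, and 7 were found. Chance marks about 1 in 20 groups. In CENPA, siFOXM1 replicate 2 was lowest at 16.68 CPM, the others lying between 18.19 and 18.44 CPM. In THOC7, siControl replicate 4 was lowest at 42.62 CPM, against 45.88 to 46.3 CPM. In HSPA6, siFOXM1 replicate 2 was highest at 2.567 CPM, against 0.4999 to 0.7573 CPM. In SAMD11, siControl replicate 4 stood at 54.15 CPM against 12.1 to 13.26 CPM, and siFOXM1 replicate 4 at 64.61 CPM against 19.57 to 25.76 CPM. In CCND3, siControl replicate 4 stood at 149.2 CPM against 103.1 to 106.5 CPM, and siFOXM1 replicate 4 at 182 CPM against 117.4 to 128.4 CPM. Of the 7 values, 5 came from the libraries numbered 4, which stood apart on the second principal component. The differences called for SAMD11 and CCND3 were still called when either of these libraries was left out.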

How the results depend on the processing

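No named gene with a called difference or mean changed sign under any alternative. Of the list medians of the difference, 4 that lay near 0 did: late cell cycle (0.02; -0.04 with upper-quartile scaling, -0.09 after the GC and length correction, -0.03 without FDI6 replicate 1), MuvB, RB and E2F (-0.05 with upper-quartile scaling), homologous recombination (-0.11 after the correction) and TGF-β targets (-0.09; 0.02 without siFOXM1 replicate 3). The count of called differences, 1959, was 3566 with no fold threshold, 275 when the test itself required a 1.5-fold change (glmTreat) and 1036 after the correction for GC content and length. It lay between 1446 (without FDI6 replicate 1) and 2350 (without siControl replicate 4) with 1 library left out, and was 1967 with RLE scaling, 1991 with upper-quartile scaling, 2088 with DESeq2, 1990 with all 24 libraries, 2293 with no filter and 2802 with the replicate block in the siRNA experiment. The share called higher was 63.7%, 51.4% with upper-quartile scaling, 89.5% with glmTreat and 57.2% with the siRNA block.

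For the FDI-6 effect (1877), the same 3 settings gave 4845, 209 and 938. Opposing genes (1656) numbered 2802, 260 and 912. For the siFOXM1 effect (138), no fold threshold gave 403, glmTreat 21, the block in each experiment 283, the block in the siRNA experiment 275, that block with the GC and length correction 290, and that block without the libraries numbered 4 222. For the mean effect (297), at least 10 counts in every library gave 192, the blocks 546 and 532, no fold threshold 2768, glmTreat 7, the GC and length correction 188, or 467 with the siRNA block, and the siRNA block without the libraries numbered 4 474, with 218 to 446 when 1 library was left out (highest without siFOXM1 replicate 4). Agreeing genes (1) numbered 2 with no filter, 5 and 4 with the blocks, 3 after the GC and length correction, 6 with both, 2 without the libraries numbered 4, or 4 with the siRNA block, and 1 to 3 when 1 library was left out. The causes were not tested.

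Among the 116 differences and means of named genes, the replicate block changed 3 calls, all gained; calls of the siFOXM1 effect that it added are given with the genes. Of 92 named differences, 36 kept direction and call under every alternative, as did 1 of 24 means. The GC and length correction ended 26 of these 116 calls and glmTreat 76. Genes with few counts in every group were not testable at this depth.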
